A study of Arabidopsis thaliana with 6 samples.

Results

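The miR158 family of Arabidopsis thaliana was described across 6 small RNA libraries from seedlings. Its members were found by name, as every listed interval named miR158. They are 4 of 679 intervals: the mature strands miR158a and miR158b (listed as ath-miR158a and ath-miR158b), and miR158a-star and miR158b-star (ath-miR158a-star and ath-miR158b-star), the partner strands of the same hairpins. The family was chosen by its counts and its mature-to-star ratios across these libraries, which were already known. Its levels, differences and ratios are therefore given as a description. Fits over all loci or hairpins supply their standard errors, and how many members passed such a fit is given beside the share of all loci or pairs, with nothing read from it.

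A plant miRNA is cut from a hairpin transcript by DCL1 as a short duplex. The methyltransferase HEN1 protects the duplex ends, and an ARGONAUTE protein, usually AGO1, keeps the guide strand while the star strand is discarded and degraded. The ratio of mature to star reads is therefore read as a record of strand choice and of the stability of each strand. miR158 is known from Arabidopsis and its relatives in the mustard family, is among the abundant miRNAs of Arabidopsis, and has been reported to match transcripts of pentatricopeptide repeat (PPR) genes, which code for RNA-binding proteins of mitochondria and chloroplasts.

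Col-0 seedlings, 10 days old and kept in water from 1 day before the treatment, gave 1 library for each of 6 combinations. These were the mutant parg1-1 with 100 nM flg22 and untreated, the mutant parp1parp2 with 100 nM flg22 and untreated, and wild type (WT) with 100 nM flg22 and untreated. PARG enzymes remove poly(ADP-ribose) from proteins and PARP enzymes add it, and flg22 is a flagellin peptide that plant cells perceive through the receptor FLS2. The study's title concerns DAWDLE, an FHA domain protein that acts with DCL1 in miRNA biogenesis. Messenger RNA was not measured in these files, so the mutant genotypes could not be checked, and how long flg22 was applied is not stated in the labels. In bulk seedling RNA, fewer cells of a type and less RNA per cell cannot be told apart.

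Libraries held 247508 to 408805 counts in total, or 119798 to 187728 if a sequence listed at several loci is taken once. Star strands made up between 3.31% and 3.91% of the deduplicated totals, and the library of parg1-1 with flg22 lay inside this range at 3.79%. This pooled share weighs abundant stars most, such as miR398b-star with a mean of 1808 counts. It does not give the balance of single hairpins. In that library 29 of 35 mature/star pairs leaned toward the star relative to WT with flg22. No group has a replicate library, so a difference between a pair of libraries has no replicate check. The 95% intervals given with counts, ratios and shares cover counting error only, since the libraries went through PCR and no molecular identifiers are described for them.

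The mature strands are shown with their seed, bases 2 to 8, in capitals, because a single base separates the family members.
miR158a: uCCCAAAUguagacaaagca
miR158b: cCCCAAAUguagacaaagca
The star strands, again with bases 2 to 8 in capitals, lie on the other arm of each hairpin.
miR158a-star: cUUUGUCUacaauuuuggaaa
miR158b-star: cUUUGUCUacacuuuuggaaa
Counted from the 5′ end, miR158b differs from miR158a by the substitution U1C, with 19 of 20 bases identical, and miR158b-star differs from miR158a-star by A12C, with 20 of 21 identical. The mature strands share the seed CCCAAAU, which no other listed sequence (0) carries. The star strands share UUUGUCU, which 1 other listed sequence, miR5019-star, carries. The nearest sequence from outside the family differs from a member at 7 bases or more. A read of the abundant miR158a with 1 wrong base can therefore look like miR158b, and the labels do not say how many mismatches the counting allowed.

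The 5′ bases differ in a way that matters for sorting in Arabidopsis, where AGO1 favours a 5′ U and AGO5 a 5′ C. miR158a starts with U, as did 62 of the 84 distinct mature sequences with a mean of at least 10 counts (73.8%). miR158b as counted starts with C, as did 7 of the 84 (8.33%). Both star strands start with C, as did 9 of the 38 star sequences at that level (23.7%). Both mature strands have 20 bases, a length shared by 9 of the 84 (10.7%), whereas 65 (77.4%) have 21. The annotation's note on the miR158b gene writes a 21-base mature form that begins 1 base earlier, Uccccaaauguagacaaagca, with its 5′ U in capitals here. The labels do not say to which interval reads of that form were assigned.

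MIR158a (AT3G10745) lies on the minus strand of chromosome 3 from 3366331 to 3366430 in TAIR10, with miR158a at 3366349 to 3366368 and miR158a-star at 3366391 to 3366411. MIR158b (AT1G55591) lies on the plus strand of chromosome 1 from 20772218 to 20772302, with miR158b-star at 20772230 to 20772250 and miR158b at 20772273 to 20772292. Both hairpins stand between protein-coding genes and overlap none (0). ASD1 (AT3G10740) and AT3G10750 flank MIR158a at 591 and 496 bases, and AT1G55590 and WRKY10 (AT1G55600) flank MIR158b at 337 and 1743 bases. Each member sequence has 1 exact match in the nuclear genome and is listed at 1 interval. Whether a read with a mismatch was counted at both hairpins is not stated in the labels.

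The annotated hairpins are shown 5′ to 3′ with both counted strands in capitals, the star strand on the 5′ arm and the mature strand on the 3′ arm.
MIR158a: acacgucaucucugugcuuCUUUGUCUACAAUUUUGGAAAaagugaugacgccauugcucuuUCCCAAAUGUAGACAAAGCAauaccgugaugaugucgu
MIR158b: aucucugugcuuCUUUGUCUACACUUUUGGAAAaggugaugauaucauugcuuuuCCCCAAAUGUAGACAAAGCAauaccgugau
The MIR158a hairpin has 100 bases and a computed folding energy of -39.7 kcal/mol, and the MIR158b hairpin has 85 bases and -28.9 kcal/mol. In the computed fold, 17 of the 20 bases of miR158a pair with its star, and 16 of the 20 of miR158b. Of the first 4 bases at the 5′ end, 3 were paired in miR158a and 2 in miR158b, against 4 in each star strand. Of the same 4 bases, 3 were G or C in miR158a and 4 in miR158b, against 1 in each star strand. In plants and animals the strand whose 5′ end is less tightly paired tends to be the one kept. The counts of paired bases and of G or C bases differ in direction, and which end is less tightly paired was not tested. These are computed folds, and structure was not measured.

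miR158a ranked between 4 and 5 among all distinct sequences in every library and held a mean of 8.15% of their counts. It had 16122 counts in parg1-1 with flg22 and 16384 in untreated parg1-1, 8850 in parp1parp2 with flg22 and 10194 in untreated parp1parp2, and 12216 in WT with flg22 and 10441 in untreated WT. Levels were then scaled to a common library total (scaled CPM, counts scaled to a common depth by TMM). These totals count a repeated sequence at each of its loci, whereas the 8.15% takes each sequence once. Scaled CPM are therefore not shares of the distinct counts. The levels were 49765 and 48428.5 in parg1-1 with flg22 and untreated, 35800.0 and 35108 in parp1parp2, and 29322 and 36738 in WT. Both parg1-1 libraries stood above the other 4, and WT with flg22 was the lowest. Untreated parp1parp2, parp1parp2 with flg22 and untreated WT lay close together.

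miR158a-star was far scarcer, with 921 counts over the 6 libraries against 74207 for miR158a. It had 370 counts in parg1-1 with flg22 and 154 untreated, 87 in parp1parp2 with flg22 and 130 untreated, and 102 in WT with flg22 and 78 untreated. In scaled CPM these were 1142 and 455 in parg1-1, 352 and 448 in parp1parp2, and 245 and 274 in WT, with flg22 first in each genotype. The library of parg1-1 with flg22 stood apart from the other 5, whose highest value, 455, was below its lower counting bound of 1029. The 4 mutant libraries all lay above both WT libraries. However, the interval of parp1parp2 with flg22 (282 to 434) overlapped those of untreated WT (217 to 343) and WT with flg22 (200 to 297). Its rank among distinct sequences ran from 30 in parg1-1 with flg22 to 54 in untreated WT.

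miR158b gave 44 to 78 counts per library. Its scaled CPM were 241 and 195 in parg1-1 with flg22 and untreated, 178 and 231 in parp1parp2, and 154 and 243 in WT. The mutant and WT ranges overlapped, with WT holding both the lowest and the highest value. miR158b-star had 20 counts in parg1-1 with flg22 and 4 untreated, 6 and 3 in parp1parp2 with flg22 and untreated, and 5 and 4 in WT with flg22 and untreated. The 20 counts have a 95% interval of 12.2 to 30.9. In scaled CPM the interval was 37.7 to 95.3, which overlapped that of the next library, parp1parp2 with flg22 (8.91 to 52.8). In the other 5 libraries miR158b-star stood at the edge of detection, and 1 library alone reached 10 counts, so it did not enter the fits below.

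**Figure D1:**
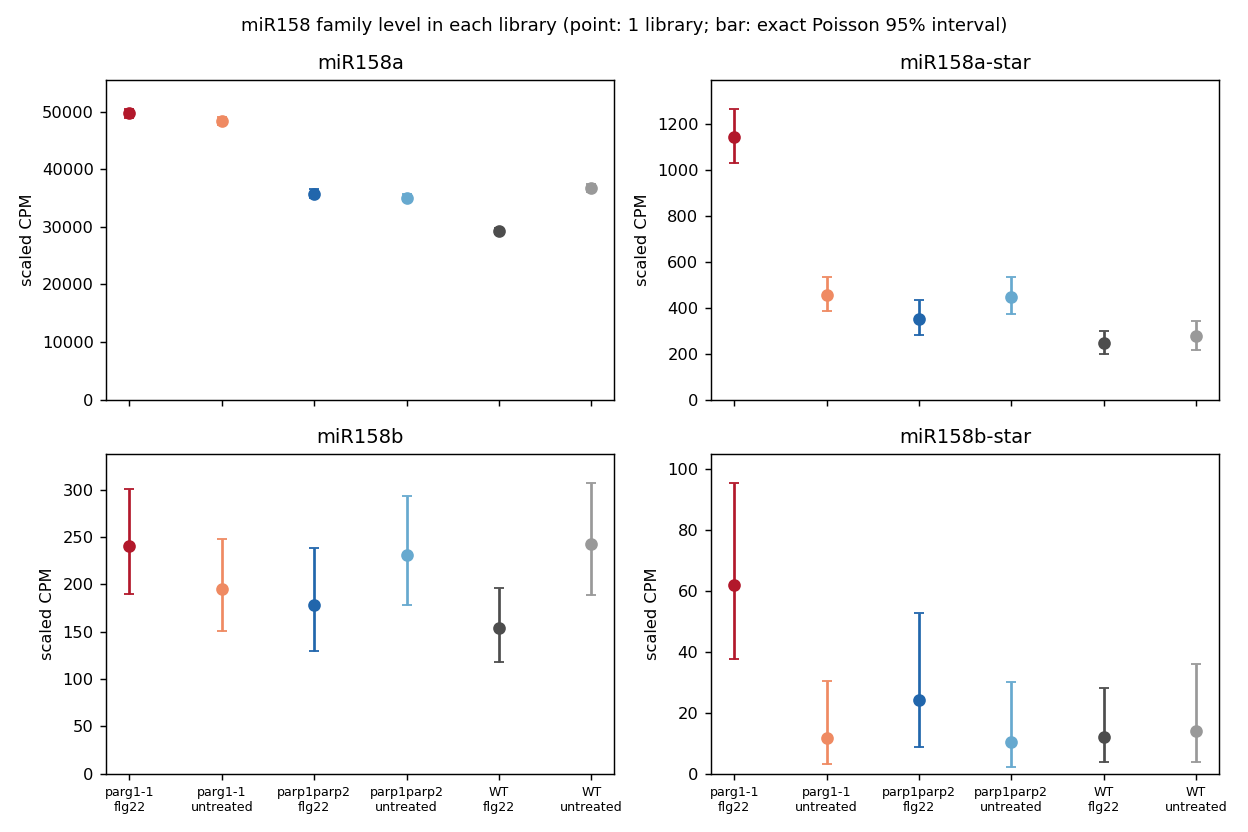
Scaled CPM of the 4 miR158 family members (vertical axes, each from 0) in the 6 libraries, with mutants left of WT and flg22 left of untreated. Each point is 1 library and each bar its exact Poisson 95% interval. Both star strands are highest in parg1-1 with flg22, at 1142 and 61.7 scaled CPM, while miR158a is high in both parg1-1 libraries.

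Because misread copies of miR158a could be counted as miR158b, the share of miR158b was set out per library. It made up 0.481% and 0.401% of the counts of both mature strands in parg1-1 with flg22 and untreated, 0.495% and 0.653% in parp1parp2, and 0.521% and 0.657% in WT. The lowest share, in untreated parg1-1 (0.310% to 0.510%), and the highest, in untreated WT (0.511% to 0.830%), had intervals that did not overlap. miR158b-star made up 5.13% and 2.53% of both star strands in parg1-1, 6.45% and 2.26% in parp1parp2, and 4.67% and 4.88% in WT, with flg22 first. All 6 of these intervals overlapped, so a change in this share was not detectable at this depth. What part misread bases have in the miR158b and miR158b-star counts was not tested.

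The strand balance within a library depends on neither depth nor scaling. miR158a-star made up 2.24% of the counts of the miR158a hairpin in parg1-1 with flg22 (exact Clopper-Pearson 95% interval 2.02 to 2.48), and 0.931% in untreated parg1-1 (0.790 to 1.09). In parp1parp2 it made up 0.973% with flg22 (0.780 to 1.20) and 1.26% untreated (1.05 to 1.49). In WT it made up 0.828% with flg22 (0.676 to 1.00) and 0.742% untreated (0.587 to 0.925). In other words, 43.6 mature reads were counted for each star read in parg1-1 with flg22, and 106, 102, 78.4, 120 and 134 in the other libraries in the same order. The interval of parg1-1 with flg22 was clear of the other 5, and that of untreated parp1parp2, the next highest, was clear of both WT libraries.

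The miR158b hairpin gave a larger star share on few counts. Star counts were 20 of 98 in parg1-1 with flg22 (20.4%, 12.9 to 29.7) and 4 of 70 untreated (5.71%, 1.58 to 14.0). They were 6 of 50 and 3 of 70 in parp1parp2 with flg22 and untreated (12% and 4.29%), and 5 of 69 and 4 of 73 in WT with flg22 and untreated (7.25% and 5.48%). The library with the highest share was the same as for the miR158a hairpin, but its interval overlapped all others except that of untreated parp1parp2 (0.893 to 12). With both hairpins summed, the share was 2.35% in parg1-1 with flg22 and between 0.774% and 1.28% in the other 5 libraries.

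**Figure D2:**
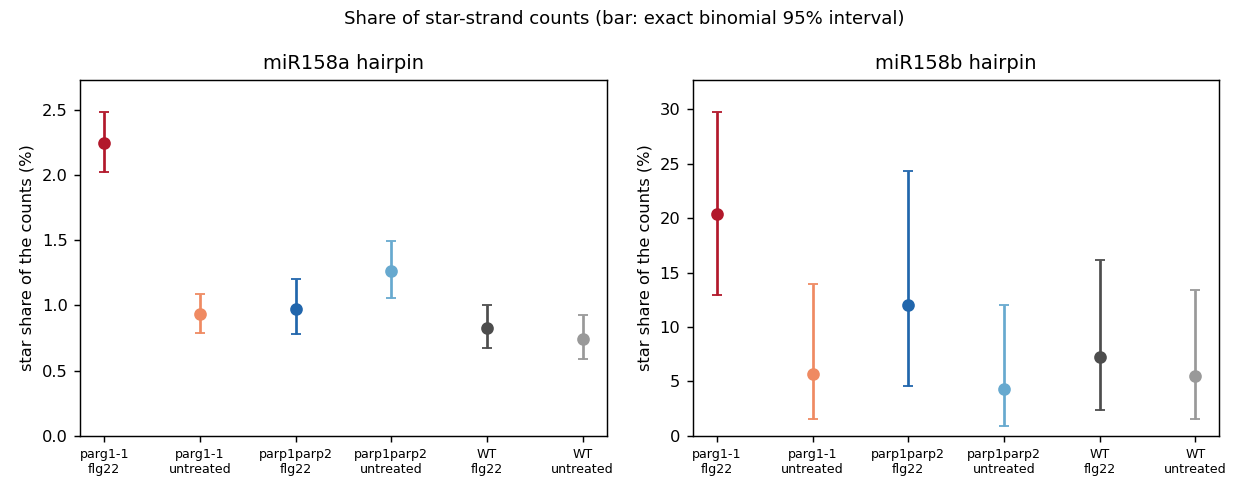
Star-strand counts as a percentage of all counts of the hairpin (vertical axes, from 0) for miR158a, left, and miR158b, right, in each of the 6 libraries. Each point is 1 library and each bar its exact binomial 95% interval. For miR158a, parg1-1 with flg22 stands at 2.24% and the other 5 libraries between 0.742% and 1.26%.

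The first comparison set flg22 against untreated within each genotype. In parg1-1, miR158a-star had a log2 ratio of 1.33 (1.05 to 1.61), or 2.51-fold, while miR158a itself had 0.04 (0.01 to 0.07). miR158b had 0.30 (-0.19 to 0.80) and miR158b-star 2.38 (0.81 to 4.39). In parp1parp2, miR158a-star had -0.35 (-0.76 to 0.06), miR158a 0.03 (-0.01 to 0.07), miR158b -0.37 (-0.96 to 0.20) and miR158b-star 1.23 (-1.0 to 3.86). In WT, miR158a-star had -0.16 (-0.60 to 0.28), miR158a -0.33 (-0.36 to -0.29), miR158b -0.66 (-1.17 to -0.15) and miR158b-star -0.23 (-2.45 to 2.10). When repeated sequences were taken once in the scaling, miR158a had -0.15 in WT and -0.07 in parp1parp2.

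A locus was called apart in a pair of libraries if the ratio reached 2, the higher library had 50 counts or more and the interval left out equality. miR158b-star, with at most 20 counts, could not be called apart in this or any other pair of libraries, and is not among the 187 loci. By this measure 1 of the 4 members, miR158a-star, was apart in parg1-1, where 1.07% of the 187 loci tested were. None (0) was apart in parp1parp2 or in WT, where the share of loci apart was 3.74% in each. The flg22 log2 ratio of miR158a-star in parg1-1 exceeded that in WT by 1.49 (normal approximation to the counts, 0.99 to 2.00) and that in parp1parp2 by 1.67 (1.20 to 2.15). For miR158a the same differences were 0.36 (0.32 to 0.41) and 0.01 (-0.04 to 0.06). These differences rest on 1 library each and were not tested.

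**Figure D3:**
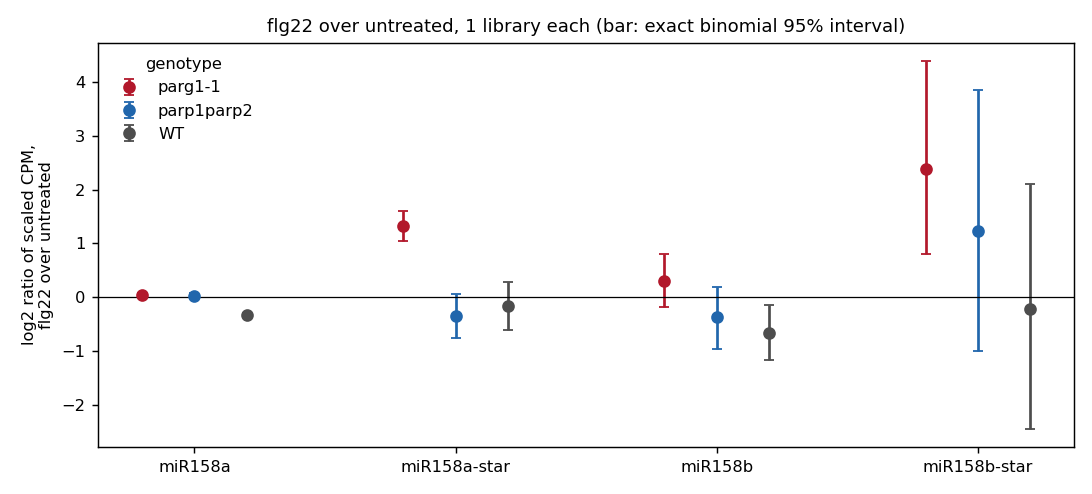
Log2 ratio of scaled CPM, flg22 over untreated (vertical axis), for each family member in parg1-1, parp1parp2 and WT. Each point compares 1 library with 1 library, and bars are exact binomial 95% intervals. miR158a-star in parg1-1 lies at 1.33, while the other genotypes lie at -0.35 and -0.16.

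The second comparison set each mutant against WT. With flg22, parg1-1 had log2 ratios to WT of 2.22 (1.90 to 2.55) for miR158a-star, 0.76 (0.73 to 0.80) for miR158a and 0.65 (0.15 to 1.15) for miR158b. miR158b-star had 2.36 (0.91 to 4.13), on 20 counts against 5. Untreated, parg1-1 had 0.73 (0.33 to 1.14) for miR158a-star, 0.40 (0.36 to 0.43) for miR158a, -0.32 (-0.82 to 0.19) for miR158b and -0.25 (-2.68 to 2.17) for miR158b-star. Of the 4 members, 1 (miR158a-star) was apart with flg22, where 9.63% of loci were, and none (0) untreated, where 4.81% were. Both miR158a strands thus stood above WT in both treatments, whereas miR158b stood on different sides of it.

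In parp1parp2 with flg22 the log2 ratios to WT were 0.52 (0.09 to 0.95) for miR158a-star, 0.29 (0.25 to 0.33) for miR158a, 0.21 (-0.38 to 0.79) for miR158b and 1.02 (-0.96 to 3.07) for miR158b-star. Untreated, they were 0.71 (0.29 to 1.13), -0.07 (-0.10 to -0.03), -0.07 (-0.58 to 0.43) and -0.45 (-3.22 to 2.12) in the same order. With flg22 all 4 values were smaller than in parg1-1, whereas untreated miR158a-star stood as far above WT in parp1parp2 (0.71) as in parg1-1 (0.73), within their intervals. No member (0) was apart in either pair, where 4.28% of loci were in each. The sign of miR158a in the untreated pair depended on scaling, with 0.02 under DESeq2 size factors and 0.22 when repeated sequences were taken once. The mutant-to-WT ratios of both mutants share the WT libraries.

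An additive model of genotype and treatment, fitted to all loci with edgeR, gave an error that includes the spread between libraries. With 1 library per combination, that error also holds any difference in flg22 response between genotypes, which cannot be told apart from it. The same holds for the strand-balance fit below. Each genotype value averages both treatments, which for miR158a-star in parg1-1 had unlike log2 ratios to WT, 2.22 with flg22 and 0.73 untreated. In parg1-1 against WT the log2 fold change was 1.56 ± 0.43 (SE) for miR158a-star, 0.58 ± 0.18 for miR158a and 0.18 ± 0.33 for miR158b. In parp1parp2 against WT the values were 0.64 ± 0.42, 0.11 ± 0.18 and 0.06 ± 0.33, and for flg22 against untreated 0.29 ± 0.35, -0.09 ± 0.14 and -0.24 ± 0.27. Directly against parg1-1, parp1parp2 had -0.92 ± 0.42 for miR158a-star, -0.47 ± 0.18 for miR158a and -0.11 ± 0.33 for miR158b. The median over the 187 loci tested was 0.01, -0.08, -0.05 and -0.02 in these contrasts. These loci hold 136 distinct sequences, so medians, shares of loci and adjusted p-values count a repeated sequence once per locus.

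Of the 3 members tested, 1 passed at an adjusted p under 0.05 in parg1-1 against WT, miR158a-star, where 10.7% of all loci passed in either direction and 2.14% with a higher level. None (0) of the 3 passed in parp1parp2 against WT, for flg22 or in parp1parp2 against parg1-1, where 0.535%, 0% and 1.07% of loci passed. Since the family was picked with these contrasts known, nothing is read from these counts, which also changed with the settings. The value of miR158a-star in parg1-1 was 0.79 without parg1-1 with flg22 and 2.43 without untreated parg1-1. It missed the threshold when the library of parg1-1, of WT (1.20) or of parp1parp2 (1.66) with flg22 was left out, and where at least 50 counts were asked for (1.53). miR158a, which missed the threshold here, passed it with DESeq2 (0.67), with DESeq2 size factors in edgeR (0.67), without untreated WT (0.76) and without untreated parp1parp2 (0.58). In parp1parp2 against parg1-1, miR158a-star was at -0.04 without parg1-1 with flg22, and passed the threshold without untreated parg1-1 (-1.68) or untreated parp1parp2 (-1.41), and miR158a passed it without WT with flg22 (-0.47). For flg22, miR158a-star was at -0.23 without either parg1-1 library.

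The strand balance of miR158a was then set beside that of all hairpins with enough counts, as log2 of mature over star within each library. In all, 35 mature/star pairs had a mean of at least 10 counts on each strand. They hold 26 distinct mature and 34 distinct star sequences, so pairs of 1 family are not independent. A sequence listed at several loci has its full counts in each of its pairs, so such a ratio is not that of 1 hairpin. For example, miR398b and miR398C share a mean of 26520 mature counts, beside 1808 and 18.2 star counts. miR158a and its star are each listed at 1 locus. Averaged over the 6 libraries, miR158a had 6.51, the 10th highest of the 35, where the median was 4.73. The range ran from -5.28 for miR393b, whose star strand is the abundant one, to 10.5 for miR398C. In 3 pairs the star exceeded the mature strand.

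In parg1-1 against WT the balance of miR158a shifted by -0.89 ± 0.35 on this scale (limma, SE), toward the star. The direction was shared widely, with 26 of the 35 pairs shifted toward the star and a median of -0.47, and miR158a stood 9th from the most negative. It was not among the pairs that passed the limma test, which were 3 of 35 (8.57%). These were miR170 (-2.34 ± 0.69) and miR824 (-1.22 ± 0.33), toward the star, and miR408 (1.08 ± 0.35), away from it. miR408, which was named after its value was seen, targets transcripts of copper proteins. The shift of miR158a was -0.19 without parg1-1 with flg22 and -1.59 without untreated parg1-1. No pair (0) passed without parg1-1 with flg22, without WT with flg22 or without untreated WT, where 3, 4 and 5 pairs had an unadjusted p under 0.05. A single pair (1) passed without either parp1parp2 library.

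The 5 named pairs with the largest shifts toward the star in parg1-1 had a mature strand below WT and a star above it in the edgeR fit. They were picked by this shift in the same contrast, so the pattern is in part fixed by the choice and nothing is read from it. miR158a had both strands above WT. miR170, of a family that targets SCARECROW-like transcription factors, had 7 and 5 mature counts in parg1-1 with flg22 and untreated, against 29 and 17 in WT. Its star had 244 and 276 counts in parg1-1 against 194 and 170 in WT, and has the same sequence as miR171a-star. The log2 fold changes in parg1-1 against WT were -1.81 ± 0.45 (SE) for the mature strand of miR170 and 0.57 ± 0.30 for its star. miR824, which targets the MADS-box gene AGL16, had 152 and 190 mature counts in parg1-1, against 328 and 280 in WT, and 260 and 278 star counts in parg1-1, against 211 and 199 in WT. Its log2 fold changes were -0.78 ± 0.30 and 0.44 ± 0.31, mature strand first. miR157C, of a family that targets SPL transcription factors, shifted by -1.41 ± 0.50, miR164C, of a family that targets NAC transcription factors, by -1.06 ± 0.88, and miR393b, of a family that targets auxin receptors, by -1.01 ± 0.47. In the same order, their mature strands had -0.95 ± 0.26, -0.52 ± 0.30 and -0.86 ± 0.39, and their stars 0.46 ± 0.36, 0.51 ± 0.51 and 0.12 ± 0.26. Of these 10 strands, the mature strands of miR170 and miR157C passed edgeR at an adjusted p under 0.05, where 10.7% of all loci passed. The 2 pairs next after miR158a were miR319b, of a family that targets TCP transcription factors, at -0.80 ± 0.53, and miR171a at -0.77 ± 0.33. In the edgeR fit miR319b had 0.03 ± 0.26 and its star 0.88 ± 0.39, so both estimates lay above WT there too, the mature one within its SE. miR171a had -0.20 ± 0.30 and its star 0.57 ± 0.30. For miR158a the values were 0.58 ± 0.18 for the mature strand and 1.56 ± 0.43 for the star.

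By library pair, the shift of miR158a was -1.46 in parg1-1 against WT with flg22 (Wald 95% interval -1.78 to -1.14), where the median of the 35 pairs was -0.74 and 29 leaned toward the star. Untreated it was -0.33 (-0.73 to 0.06), where the median was -0.19 and 20 leaned toward the star. Between parg1-1 with flg22 and untreated parg1-1 it was -1.29 (-1.56 to -1.01), where the median was -0.39 and 27 leaned toward the star. In each of these pairs of libraries the balance of most hairpins moved the same way as that of miR158a. miR158a stood 6th, 15th and 6th from the most negative of the 35.

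In parp1parp2 against WT the balance of miR158a shifted by -0.50 ± 0.35 (limma, SE), the 4th most negative of 35, while the median was 0.09 and 16 pairs leaned toward the star. The shift was 0.045 without untreated parp1parp2. By library pair, untreated, the shift was -0.77 (-1.18 to -0.36), and with flg22 -0.24 (-0.65 to 0.18). Between parp1parp2 with flg22 and untreated parp1parp2 it was 0.38 (-0.02 to 0.77), and between WT with flg22 and untreated WT -0.16 (-0.59 to 0.27). For flg22 against untreated over all genotypes it was -0.36 ± 0.29, where the median was -0.13, and it was 0.11 without either parg1-1 library. Directly against parg1-1, parp1parp2 had 0.39 ± 0.35, where the median was 0.50, and -0.31 without parg1-1 with flg22. In these 3 contrasts no pair (0) passed the limma test, where 0% of pairs passed. At an unadjusted p under 0.05 there were 2 in parp1parp2 against WT, 2 for flg22 and 8 in parp1parp2 against parg1-1, and edgeR on both strands together called 1, 0 and 3 pairs.

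**Figure D4:**
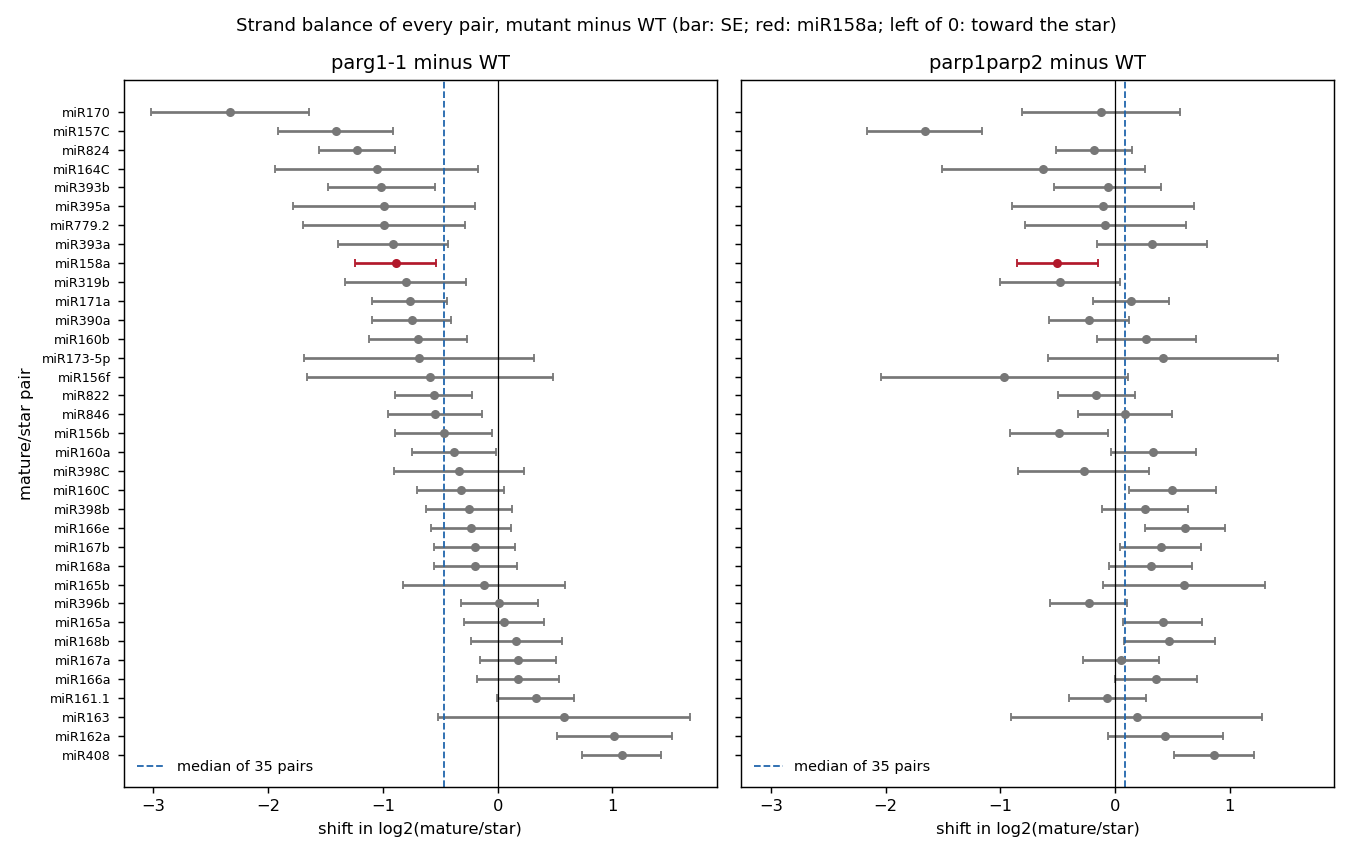
Shift in log2(mature/star) of each of the 35 pairs (horizontal axis), parg1-1 minus WT on the left and parp1parp2 minus WT on the right, with pairs in the order of the left panel from the most negative down. Points are limma estimates from all 6 libraries, bars are SE, the dashed line is the median of the 35 pairs and miR158a is red. In parg1-1 most pairs lie left of 0, with a median of -0.47, and miR158a lies at -0.89.

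The sequences most like each miR158a strand in their pattern were found by the root mean square difference of centred log2 levels over the 6 libraries, among 133 other sequences. Closest to miR158a were miR171a-star (0.07), miR824-star (0.12) and miR840-star (0.12), where the median sequence differed by 0.42. miR171a-star, for instance, had 753 and 816 scaled CPM in parg1-1 with flg22 and untreated, 558 and 510 in parp1parp2, and 466 and 598 in WT. The 3 are star strands, and miR840-star rested on 5 to 12 counts per library. Closest to miR158a-star were miR843 (0.34), miR162a (0.36) and miR319b-star (0.44), where the median was 0.79. miR162a, which targets the DCL1 transcript, had 26340 and 18267 scaled CPM in parg1-1 with flg22 and untreated, 9251 and 9261 in parp1parp2, and 9546 and 8761 in WT. miR843 rested on 11 to 47 counts per library.

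The other families reported to act on PPR genes, miR161 and miR400, were listed at 6 intervals, of which 4 entered the fit. None (0) passed edgeR in parg1-1 against WT, parp1parp2 against WT, flg22 against untreated or parp1parp2 against parg1-1. In the same order, 10.7%, 0.535%, 0% and 1.07% of the 187 loci passed. DESeq2 called 0 of the 4 in each, against 12, 1, 0 and 9 of all loci, and nothing is read from these counts. In the same order, 1, 0, 0 and 1 of the 4 miR161 and miR400 loci had an unadjusted edgeR p under 0.05. In parg1-1 against WT their median log2 fold change was -0.36. miR161.1 had 0.45 ± 0.23 (SE), miR161.1-star 0.12 ± 0.33, miR161.2 -0.83 ± 0.31 and miR400 -0.89 ± 0.44, with a smallest edgeR adjusted p of 0.163, for miR161.2. miR161.1, at 33084 and 22184 scaled CPM in parg1-1 with flg22 and untreated, 23697 and 16703 in parp1parp2, and 18170 and 21165 in WT, was the member whose abundance came nearest to that of miR158a. Its strand balance in parg1-1 against WT differed by 0.33 ± 0.33 (limma, SE), against -0.89 ± 0.35 for miR158a. Neither passed the limma test, where 8.57% of the 35 pairs did.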

How the data were processed

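Small RNA of about 15 to 30 bases was sequenced from 6 seedling libraries, 1 per combination of genotype and treatment, after 15 PCR cycles, per the labels' protocols. The authors deposited raw whole-number read counts per interval. Bowtie 0.12.8, bedtools and the build TAIR10 are named per the submitters' processing notes. No label states how reads were assigned to intervals. All 82 sequences at more than 1 locus had equal counts at their loci.

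Intervals of the deposited counts were read on TAIR10.1, where 391 coincide with annotated mature miRNAs, and hairpins were folded with ViennaRNA 2.7.2. Counts were fitted with edgeR 4.0.16 (glmQLFit, additive genotype and treatment, TMM, 2 residual degrees of freedom, R 4.3.3) over the 187 loci that reached 10 counts in 2 or more libraries, and Benjamini-Hochberg adjusted over all of them. Strand balance, log2((mature + 0.5)/(star + 0.5)), was fitted with limma 3.58.1 over 35 distinct pairs with a variance trend on the mean count of the weaker strand. Both fits were tested on simulated data. DESeq2 1.42.0 was an alternative. The labels do not state separate cultures, so p-values reflect only how these libraries vary, possibly for technical reasons.

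Members, lists and tests were chosen with earlier results of these data known. Beyond the family, named miRNAs are the 3 nearest in pattern to each miR158a strand, up to 5 pairs with a larger shift in parg1-1 and the 2 next after miR158a, miR161 and miR400, and the 5 most abundant sequences, which were miR398b, miR159a, miR159b, miR166a and miR158a.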

Additional observations from a re-analysis of the deposited data

Results flagged for a closer look

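Of the 18 differences in flg22 response between genotypes that were computed for the family, 5 reached 2-fold with a counting interval that excluded equality. Each of the 5 has parg1-1 on one side, as do most of the 18. The 18 are not independent, since the counts of a strand enter both its own difference and that of its hairpin. Such differences were not computed for other loci, so no background share stands beside this count, and nothing is read from it. The log2 ratio of flg22 to untreated for miR158a-star in parg1-1 exceeded that in WT by 1.49 (0.99 to 2.00) and that in parp1parp2 by 1.67 (1.20 to 2.15). For miR158b-star the excess of parg1-1 over WT was 2.61 (0.17 to 5.06). This value rests on 20 and 4 counts in parg1-1 with flg22 and untreated, against 5 and 4 in WT. It is among the 5 because no minimum count was asked for here, unlike in the rule for loci apart. The intervals of these differences are normal approximations to the counts, which are rough for counts this low. The other differences of the star strands had intervals that included equality, with -0.18 (-0.76 to 0.40) for miR158a-star in parp1parp2 against WT, and, for miR158b-star, 1.15 (-1.38 to 3.68) in parg1-1 against parp1parp2 and 1.46 (-1.29 to 4.22) in parp1parp2 against WT. The log2 ratio of mature to star of the miR158a hairpin moved by -1.13 (-1.63 to -0.62) more in parg1-1 than in WT, and by -1.66 (-2.14 to -1.18) more than in parp1parp2. All 5 differences include the library of parg1-1 with flg22, in which 27 of 35 hairpins also leaned toward the star relative to untreated parg1-1. The part of that library in these differences was not tested, and the differences themselves were not tested across replicates.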

How the results depend on the processing

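No paired analysis by replicate number was possible because each combination of genotype and treatment has 1 library. The additive fit compares flg22 with untreated within each genotype, over 3 pairs of libraries. Leaving out a library leaves groups whose lone sample is assumed to vary like the others. The 1 library per group, the 2 residual degrees of freedom and the few counts of miR158b-star limit every value. No cause was tested for the changes below.

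Loci called by edgeR in parg1-1 against WT numbered 20, against 12 with DESeq2, 12 with repeated sequences taken once and 3 where at least 50 counts were asked for, and 2 to 32 with 1 library left out (2 and 7 without parg1-1 with flg22 and untreated, 5 and 32 without parp1parp2 with flg22 and untreated). In parp1parp2 against WT there was 1, against 2 with no filter and 1 to 8 with 1 library left out (2 and 8 without parp1parp2 with flg22 and untreated, 5 without untreated WT). For flg22 there were 0, and 0 to 3 with 1 library left out (3 without untreated parp1parp2). In parp1parp2 against parg1-1 there were 2, against 9 with DESeq2, 9 with its size factors, 4 with no filter, 0 at 50 counts and 13 with repeated sequences taken once, and 0 to 26 with 1 library left out (26 without untreated parp1parp2).

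Strand pairs called in parg1-1 against WT numbered 3, against 0 at a minimum mean count of 30 and 0 to 3 with 1 library left out. In parp1parp2 against WT there were 0, against 1 with edgeR on both strands, 1 with pairs as deposited and 0 to 1 with 1 library left out. In parp1parp2 against parg1-1 there were 0, against 2 at a prior count of 2, 2 at a minimum mean count of 5, 3 with edgeR and 0 to 4 with 1 library left out (4 without untreated parg1-1). With 1 library left out, the strand shift of miR158a ran from -1.59 to -0.19 in parg1-1 against WT, from -1.05 to 0.045 in parp1parp2 against WT (0.045 without untreated parp1parp2), from -0.72 to 0.11 for flg22 (0.11 without either parg1-1 library) and from -0.31 to 1.08 in parp1parp2 against parg1-1 (-0.31 without parg1-1 with flg22).

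Fold changes that changed sign with 1 library left out ran as follows on the log2 scale. miR158a ran from -0.068 to 0.29 in parp1parp2 against WT and from -0.14 to 0.034 for flg22. miR158a-star ran from -0.23 to 0.74 for flg22, with -0.23 without either parg1-1 library. miR158b ran from -0.14 to 0.74 in parg1-1 against WT, from -0.23 to 0.40 in parp1parp2 against WT and from -0.54 to 0.34 in parp1parp2 against parg1-1, where it was 0.030 with repeated sequences taken once. In untreated parp1parp2 over untreated WT, miR158a turned to 0.020 with DESeq2 size factors and 0.22 with repeated sequences taken once. Loci apart with repeated sequences taken once numbered 4 for flg22 in parp1parp2 and 3 in WT, against 7 each, and 4 and 5 for parp1parp2 against WT with flg22 and untreated, against 8 each.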
